A study of Mus musculus with 36 samples.

Results

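Metabotropic glutamate receptors and the Homer proteins that anchor them were followed here through 9 genes: the receptor genes Grm2, Grm3, Grm4, Grm5, Grm7 and Grm8, and the scaffold genes Homer1, Homer2 and Homer3. They are 9 of the 18194 genes that had a probe set with 1 gene symbol, and 19 such probe sets represented them. The genes were taken as a family and chosen by measured values of these arrays: the difference between -/- and +/+ mice in each line and tissue, with Homer2 higher in the stg cerebellum, and the difference between cerebellum and forebrain in +/+ mice. Those differences are therefore described without p-values for the members, and where a count past the threshold is given beside the share of all probe sets, nothing is read from it. The one test of the members that the choice did not reach sets the 3 +/+ groups against each other.

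Metabotropic glutamate receptors are G protein-coupled receptors that adjust synaptic strength more slowly than the ion channels opened by glutamate. Grm5 belongs to the group that acts through Gq and phospholipase C, mostly on the postsynaptic side, while Grm2 and Grm3 form one Gi/o-coupled group and Grm4, Grm7 and Grm8 another, often on nerve terminals. Homer proteins bind the tail of the Gq-coupled receptors and, through a coiled coil, tie them to Shank scaffolds and to calcium stores. In the cerebellum this system is known for its part in plasticity at the synapses of granule cells on Purkinje cells.

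RNA was taken from the cerebellum and the forebrain of mice of the lines stg, tg and lh and hybridised to 36 one-colour Affymetrix arrays in 12 groups of 3. For each of these 3 lines there were -/- and +/+ mice in either tissue. Here stg is taken for stargazer (a mutant of Cacng2), tg for tottering (Cacna1a) and lh for lethargic (Cacnb4), all calcium channel genes, and this reading is not in the labels. The labels also use the word mutant for the +/+ mice, so these were taken as the wild-type mice of each line. Age, sex, strain background and the exact alleles are not stated in the labels, and each label speaks of a single mouse. Nothing says whether one animal gave a sample of each tissue. The p-values below set a difference against the spread between these samples. The fits across tissues treat every array as a separate sample.

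The probe set of Cacng2 with the highest mean gave signals of 3.21 to 41.7 on the 6 stg-/- arrays and 273 to 533 on the other 30. That of Cacnb4 gave 591 to 1510 on the 6 lh-/- arrays, while the lh+/+ arrays read 1220 to 2600. In each tissue the lh-/- arrays lay below the lh+/+ arrays. That of Cacna1a overlapped between the tg genotypes, at 284 to 430 in -/- and 247 to 485 in +/+ cerebellum. In forebrain it was at 99.8 to 157 and 97.4 to 142. The signal of this gene therefore gives no check of the tg labels. The tissue labels went with their markers: the granule cell gene Gabra6 was at 5220 to 9170 in cerebellum and at 2.83 to 178 in forebrain, the Purkinje cell gene Pcp2 at 6060 to 9760 and 2.25 to 202, and the forebrain gene Neurod6 at 25.3 to 61.4 and 159 to 583. The 159 came from tg+/+ forebrain replicate 2, while replicates 1 and 3 of that group read 494 and 490. Cacnb4 was also lower on that array, at 758 beside 1290 and 1480. Without any 1 array, 0 members were called in tg forebrain. In 3 forebrain arrays, stg+/+ replicates 1 and 2 and lh+/+ replicate 3, the pituitary hormone genes Gh and Prl were high (2100 to 3530 and 2090 to 6050). Forebrain values that moved without those arrays are named beside the result. In whole tissue, fewer cells of a type and less RNA per cell cannot be told apart.

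In +/+ mice the family was divided between the tissues. The signals of Grm4 and Homer3 were higher in cerebellum, and those of Grm5, Grm7, Grm3, Grm8, Grm2, Homer1 and Homer2 were higher in forebrain. Differences are on the scale of log2 of the signal plus 2.98, which understates those of dim probe sets, and signals are in arbitrary units that cannot be compared between probe sets. Of the 19 member probe sets 17 passed the filter on low values over all 36 arrays. In cerebellum against forebrain of +/+ mice 17 of 17 passed an adjusted p of 0.05 (limma, Benjamini-Hochberg), with 2 higher and 15 lower in cerebellum, where 58.2% of all 27022 probe sets tested passed. The median difference of the 17 was -1.46, while that of all probe sets was 0.06. Since this contrast chose the genes, nothing is read from the count.

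Grm5, the Gq-coupled receptor of the set, had the widest gap between tissues among the 17. Over the 9 +/+ arrays of each tissue its main probe set, 1455272_at, ran from 20.1 to 43.8 in cerebellum (median 34.1) and from 792 to 1030 in forebrain (median 883), a log2 difference of -4.65 (SE 0.10). The second probe set of Grm5, 1456119_at, was at -3.76. It lay below the filter in cerebellum and above it in forebrain.

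Among the Gi/o-coupled receptors, Grm4 stood apart from the other 4. Grm4, a receptor of the parallel fibre terminals of granule cells, was at 809 to 1190 in cerebellum (median 1040) and at 105 to 192 in forebrain (median 153), a difference of 2.74 (SE 0.09). Its relative Grm7, a receptor of the presynaptic active zone, went the other way, from 133 to 247 in cerebellum (median 169) to 437 to 609 in forebrain (median 563), with a difference of -1.68 (SE 0.09). Grm8, also presynaptic, was at 24.9 to 50 in cerebellum and 61.6 to 103 in forebrain (-1.20, SE 0.12). Of the remaining Gi/o-coupled receptors, Grm3, found in glia as well as in neurons, was at 193 to 309 and 462 to 743 (-1.28, SE 0.08). Grm2, known in the cerebellum as a receptor of Golgi cells, was at 67.1 to 106 and 155 to 226 (-0.99, SE 0.10). On the main probe set of each of these 5 genes the 9 cerebellum arrays did not overlap the 9 forebrain arrays. The share of all probe sets without overlap between tissues was not counted, and 58.2% passed the threshold in this contrast. Nothing is read from the lack of overlap. The second Grm7 probe set, 1458861_at, was at -0.77 (SE 0.20). Its arrays overlapped, at 11.7 to 55.5 in cerebellum and 45.4 to 103 in forebrain.

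The 3 Homer genes differed among themselves. Homer3, a scaffold abundant in Purkinje cells, was at 365 to 546 in cerebellum (median 407) and at 26.5 to 82.5 in forebrain (median 42.7), a difference of 3.20 (SE 0.14). The main probe set of Homer1, 1437363_at, was at 346 to 627 in cerebellum and 963 to 1660 in forebrain (-1.5, SE 0.10). The 4 other Homer1 probe sets that were tested gave -1.42 to -2.56. The main probe set of Homer2, 1457671_at, was at 95 to 186 in cerebellum (median 144) and 283 to 411 in forebrain (median 343), a difference of -1.30 (SE 0.11), and its other probe sets gave -1.62 and -1.82. So in wild-type mice Homer2, like Homer1, read lower in cerebellum on every probe set, with no overlap of the arrays on the main ones.

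**Figure D1:**
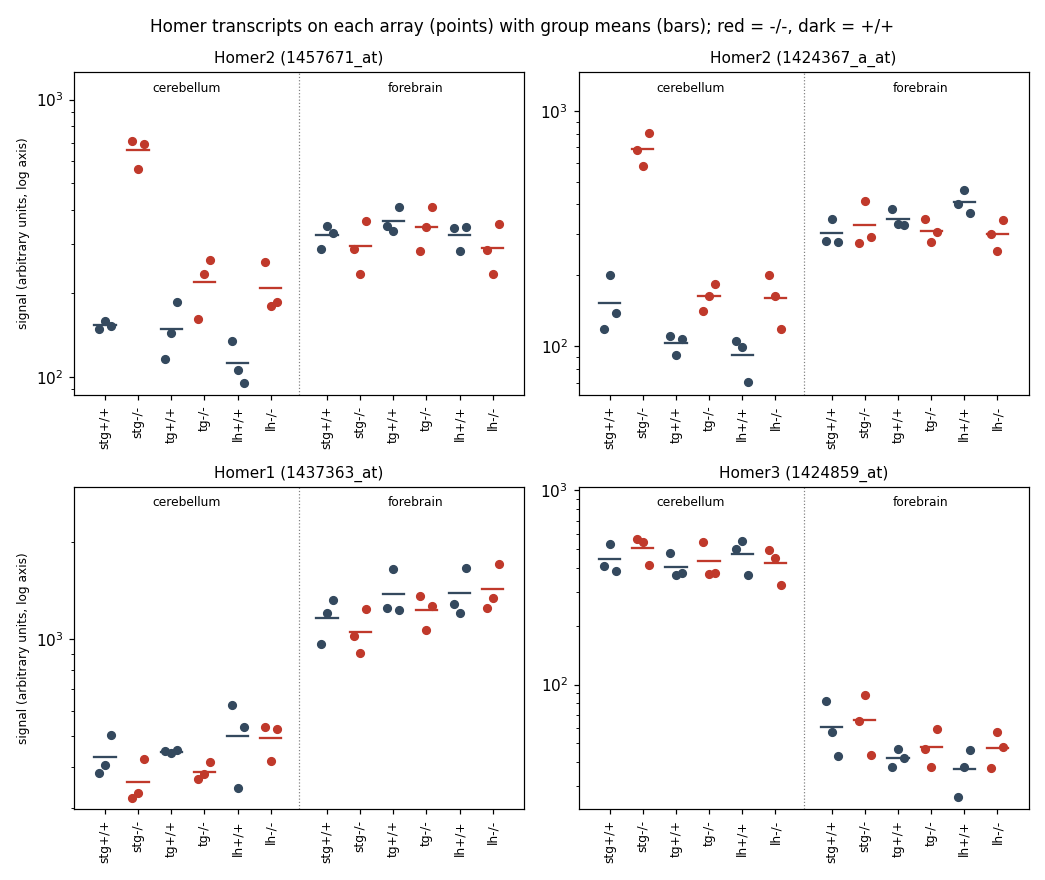
Signal (arbitrary units, log axis) of the main Homer1, Homer2 and Homer3 probe sets and of a second Homer2 probe set on each of the 36 arrays; points are arrays, bars are means of 3, red is -/- and dark is +/+. The 3 stg-/- cerebellum arrays stand at 563 to 710 for Homer2 1457671_at, above every other array of either tissue. Homer3 and Homer1 are divided by tissue, and Homer1 is also lower in tg-/- than in tg+/+ cerebellum without overlap.

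In the stg cerebellum Homer2 was several times higher in -/- than in +/+ mice, and the other scaffolds were not. The receptor gene Grm4 was lower in the same arrays, and Grm5, which is dim in cerebellum, was higher without passing the threshold. In this comparison 3 of the 15 member probe sets that passed the cerebellum filter were called, 2 of Homer2 higher and 1 of Grm4 lower, where 1.3% of all probe sets tested were called. The median difference of the 15 was -0.02 and that of all probe sets 0.01, with 7 of the 15 above 0. The contrast chose the genes, so nothing is read from these counts.

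Homer2 on probe set 1457671_at read 148, 159 and 152 on the stg+/+ arrays and 710, 563 and 694 on the stg-/- arrays. The lowest -/- array was above the highest +/+ array by a wide margin. The log2 difference was 2.07 (SE 0.20), a fold of 4.20. Probe set 1424367_a_at of the same gene read 118, 201 and 138 against 678, 580 and 807, a difference of 2.18 (SE 0.21), again with no overlap. The third, 1436110_at, was too dim in cerebellum to pass the filter, and its values of 19.7, 34 and 17.3 against 65.7, 28.9 and 74.3 overlapped, with a difference of 1.10. The probe sets differed in brightness and in the size of the difference but had the same sign. Leaving out any 1 of the 6 arrays left the main value between 2.01 and 2.18, and the 3 member calls stayed with the same probe sets.

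The tg and lh cerebellum showed smaller values of the same sign for Homer2. In tg the main probe set read 116, 144 and 186 in +/+ and 162, 234 and 264 in -/-, which overlap, with a difference of 0.55 (SE 0.20). On 1424367_a_at the tg arrays did not overlap, at 110, 92 and 107 against 141, 164 and 184, a difference of 0.64 (SE 0.21). In lh the main probe set read 134, 106 and 95 against 260, 180 and 186, without overlap, a difference of 0.88 (SE 0.20), and 1424367_a_at gave 0.78 (SE 0.21), also without overlap. The dim probe set 1436110_at was at 1.17 in tg and 0.98 in lh. None of these passed the adjusted threshold: 0 of 15 member probe sets were called in tg, where 0.574% of all probe sets were, and 0 of 15 in lh, where 0.155% were. At an unadjusted p under 0.05 there were 3 and 2 members in tg and lh and 5 in stg, beside 1967, 2058 and 2899 of the 27022 probe sets. In tg and lh 1 or 2 Homer2 probe sets passed under some other settings, given in the closing section. Whether the Homer2 difference of stg exceeded those of the other lines was not tested, since the lines were read together when the gene was chosen.

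Put in order of the mean signal on its main probe set, Homer2 was highest in stg-/- cerebellum, at 656 ± 80.2 (SD, n = 3). The 6 forebrain groups followed, from 366 ± 40 in tg+/+ to 292 ± 60.7 in lh-/-, and each overlapped its neighbours. Then came tg-/- cerebellum at 220 ± 52.2 and lh-/- cerebellum at 209 ± 44.6, which overlapped each other. The +/+ cerebellum groups were last, stg at 153 ± 5.69, tg at 149 ± 35 and lh at 112 ± 20.1, each overlapping the next. Clear steps with no overlap between neighbours lay below stg-/- cerebellum and between lh-/- and stg+/+ cerebellum. The latter step held for those neighbours only. The tg+/+ cerebellum arrays (116 to 186) overlapped those of tg-/- (162 to 264) and lh-/- (180 to 260).

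The sequences around the starts of Homer2 and of its relative Homer1 are shown because Homer2 had the largest difference of the family in the mutant cerebellum, with Homer1 for comparison. They come from RefSeq on GRCm38.p6, which gave starts for 7 of the 9 genes. Grm4 and Grm5 are named only. Each window holds 250 bases before and 50 after a start, on the strand of the gene. Capitals mark 3 short motifs, searched on both strands with overlaps counted: TGACG, the core of the sites bound by the activity-regulated factor CREB, GGGCGG, the GC box, and TATAAA, the TATA box. Homer2 has 2 starts in the table, at chr7:81706876-81707175 and, further along the gene, at chr7:81692916-81693215, both on the minus strand. Homer1 also has 2 starts in the table, both on the plus strand. The window at chr13:93303507-93303806 is shown, and the one at chr13:93307784-93308083, not shown, holds 0 copies of TGACG.
Homer2 upstream start: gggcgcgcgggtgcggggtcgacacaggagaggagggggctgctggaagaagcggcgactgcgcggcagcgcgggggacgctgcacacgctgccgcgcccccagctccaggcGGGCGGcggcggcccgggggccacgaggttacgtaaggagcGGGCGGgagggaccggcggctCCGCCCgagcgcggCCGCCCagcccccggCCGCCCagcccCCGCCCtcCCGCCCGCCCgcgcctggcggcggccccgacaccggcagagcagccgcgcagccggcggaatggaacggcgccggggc
Homer2 downstream start: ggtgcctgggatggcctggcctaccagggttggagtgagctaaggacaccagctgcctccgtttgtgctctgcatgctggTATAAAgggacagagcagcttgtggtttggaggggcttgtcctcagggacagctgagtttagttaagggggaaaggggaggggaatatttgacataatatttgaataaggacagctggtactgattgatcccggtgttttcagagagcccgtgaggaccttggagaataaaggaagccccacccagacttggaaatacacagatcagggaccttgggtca
Homer1 start: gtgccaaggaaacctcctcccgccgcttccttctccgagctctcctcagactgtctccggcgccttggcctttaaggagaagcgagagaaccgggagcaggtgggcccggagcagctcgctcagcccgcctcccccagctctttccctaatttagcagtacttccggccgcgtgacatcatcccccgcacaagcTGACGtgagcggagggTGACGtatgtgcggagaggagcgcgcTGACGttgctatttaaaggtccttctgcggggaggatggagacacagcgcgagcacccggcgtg
The first Homer2 window holds 8 GC boxes at a GC content of 82.3% and the second holds 1 TATA box. Neither holds TGACG, and the Homer1 window shown has 3. Of 32851 mouse windows of the same length, 20.8% hold TGACG, 35.7% hold GGGCGG and 13.6% hold TATAAA. The array does not tell which start was used.

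Homer1 and Homer3 gave small values in the mutant cerebellum. Homer3 read 407, 532 and 386 in stg+/+ cerebellum and 561, 544 and 412 in stg-/-, which overlap, a difference of 0.20 (SE 0.19), and was at 0.07 in tg and -0.15 in lh. The main Homer1 probe set read 383, 408 and 505 against 322, 333 and 426 in stg, a difference of -0.26 (SE 0.17) with overlap. In tg it read 450, 442 and 452 against 368, 381 and 416, a difference of -0.21 (SE 0.17) without overlap, and in lh it was at 0.01. The other tested Homer1 probe sets lay between -0.59 and -0.03 in stg, between -0.54 and 0.09 in tg and between -0.09 and 0.21 in lh. The lowest in stg was 1425710_a_at, at 50.3, 60.8 and 69.3 against 31.1, 34.3 and 53.2, which overlap. Homer1 probe set 1425671_at was below the filter in both tissues.

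Grm4 was the receptor whose signal was lower in the stg cerebellum. It read 1050, 1190 and 1020 in stg+/+ and 613, 728 and 728 in stg-/-, a difference of -0.66 (SE 0.12), with every -/- array below every +/+ array. Without any 1 of these arrays the difference lay between -0.70 and -0.57. In tg the values were 1040, 932 and 924 against 1040, 923 and 931, a difference of -0.0016, and in lh 809, 1170 and 1080 against 951, 1040 and 907, a difference of -0.07. The arrays of both genotypes overlapped in tg and lh.

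Grm5 was higher in -/- cerebellum in all 3 lines, from a low level. In stg it read 43.8, 37.5 and 34.1 in +/+ and 94.2, 55.9 and 75.8 in -/-, a difference of 0.89 (SE 0.25). In tg it read 20.1, 41.9 and 32.6 against 44.6, 45.9 and 45.7 (0.54), and in lh 29.5, 31.7 and 37.9 against 41.3, 49.7 and 50.2 (0.48). The arrays did not overlap in any of the 3 lines, and none of the 3 differences was called. The second Grm5 probe set, below the filter in cerebellum, was at 0.95 in stg without overlap, and at -0.11 in tg and 0.06 in lh with overlap. So the 2 probe sets had the same sign in stg and lh and not in tg.

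The remaining receptors gave small values in cerebellum. Grm2 read 83.7, 89.1 and 85.3 in stg+/+ and 125, 81.8 and 128 in stg-/-, where 2 of 3 arrays were higher and 1 was not (0.34, SE 0.19). In tg it read 67.1, 100 and 101 against 112, 104 and 122 without overlap (0.35), and in lh it was at 0.01. Grm3 lay at -0.07, -0.07 and -0.11 in stg, tg and lh, and Grm8 at 0.24, 0.08 and -0.17, all with overlap. Grm7 on its main probe set was at -0.02, 0.06 and -0.20, the last without overlap. Its second probe set gave 0.14, -0.38 and 0.70 with an SE of 0.42, so it did not follow the main one.

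Of the 15 member probe sets tested in cerebellum, 5 had no overlap between -/- and +/+ arrays in stg, 5 in tg and 4 in lh. That is 33.3%, 33.3% and 26.7%, while 15.6%, 14% and 12.7% of all probe sets had none. These shares belong to contrasts that chose the genes and are a description only.

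**Figure D2:**
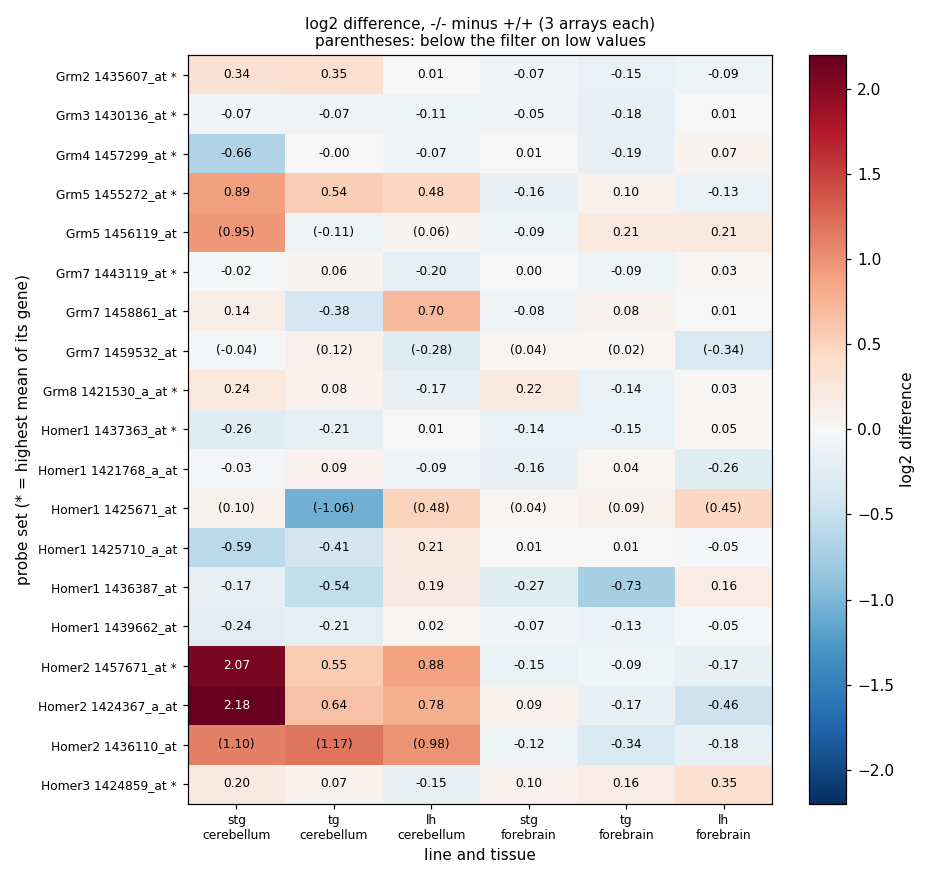
Log2 difference, -/- minus +/+, of all 19 member probe sets (rows) in each line and tissue (columns), with 3 arrays a group; an asterisk marks the main probe set of a gene and parentheses mark values below the filter. The darkest cells are those of Homer2 in stg cerebellum, at 2.07 and 2.18, and Grm4 in the same column is at -0.66.

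In forebrain, where Homer2 and 6 other genes of the family are brighter than in cerebellum, no member was called in any line. The counts were 0 of 17 in stg, 0 of 17 in tg and 0 of 17 in lh, where 0.0111%, 0.189% and 0.0148% of all probe sets were called. At an unadjusted p under 0.05 there were 0, 0 and 1 members, beside 690, 1536 and 1045 of the 27022 probe sets. The median differences were -0.07, -0.13 and 0.01, and those of all probe sets 0.0019, 0.0032 and 0.01. Homer2 on its main probe set read 290, 351 and 329 in stg+/+ forebrain and 288, 234 and 366 in stg-/-, a difference of -0.15 (SE 0.18), and was at -0.09 in tg and -0.17 in lh, all with overlap. On 1424367_a_at the lh arrays did not overlap, at 400, 462 and 369 in +/+ and 300, 253 and 343 in -/-, a difference of -0.46 (SE 0.16).

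The receptors gave small values in forebrain. Grm5 gave -0.16, 0.10 and -0.13 (SE 0.11) in stg, tg and lh and Grm4 gave 0.01, -0.19 and 0.07 (SE 0.19). The main probe sets of Grm2, Grm3, Grm7 and Grm8 lay between -0.19 and 0.22 over the 3 lines. Without the arrays high in Gh and Prl, which leaves 1 stg+/+ array that is assumed to vary like the other groups, 5 member values in stg moved. That of Grm4 went from 0.01 to 0.51, set against 1 array that read 105, lower than the other 2 at 192 and 164. Grm8 went from 0.22 to -0.03, Grm5 1456119_at from -0.09 to -0.41, Grm7 1458861_at from -0.08 to 0.42 and Homer1 1421768_a_at from -0.16 to -0.47. Homer3 was at 0.10, 0.16 and 0.35 (SE 0.29). The largest value of a Homer1 probe set that passed the filter was -0.73 (SE 0.40) for 1436387_at in tg, where the arrays overlapped. In forebrain only 2 of 17 member probe sets in lh, 1 of Homer2 and 1 of Grm5, had no overlap (11.8%, and 10.7% of all probe sets), and 0 of 17 in stg and in tg.

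**Figure D3:**
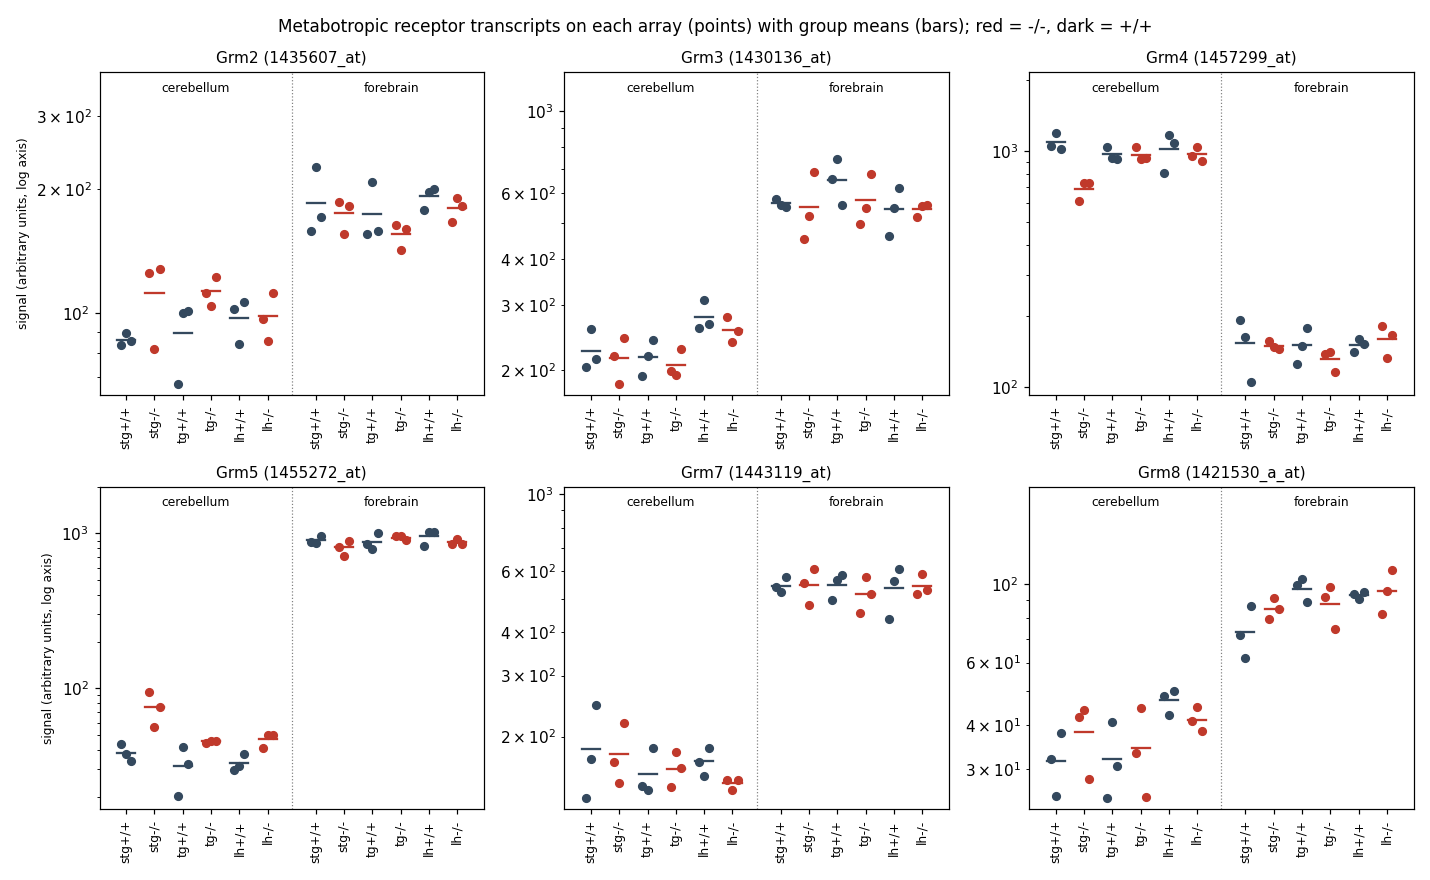
Signal (arbitrary units, log axis) of the main probe set of each of the 6 receptor genes on each of the 36 arrays; points are arrays, bars are means of 3, red is -/- and dark is +/+. Grm4 is brighter in cerebellum and lowest there in the 3 stg-/- arrays (613 to 728), and the other 5 are brighter in forebrain.

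The -/- mice showed the same division for 8 of the 9 genes. Their tissue difference equals that of the +/+ mice plus the cerebellum differences and minus the forebrain differences given above, so it is fixed by the values that chose the genes and is a description too. Grm4 and Homer3 were higher in cerebellum and Grm5, Grm7, Grm3, Grm8, Grm2 and Homer1 higher in forebrain. Of the 17 member probe sets tested 14 passed (2 higher, 12 lower in cerebellum), where 56.6% of all probe sets did, and the 3 that did not pass were the 3 of Homer2. Nothing is read from this count. The median difference of the 17 was -1.28 and that of all probe sets 0.06. Over 9 arrays a tissue, Grm5 ran from 41.3 to 94.2 in -/- cerebellum (median 49.7) and from 719 to 958 in -/- forebrain (median 897). The difference was -3.95 (SE 0.10). Homer3 ran from 324 to 561 and from 37.1 to 88.4, a difference of 3.03 (SE 0.14). Grm4 ran from 613 to 1040 and from 116 to 182, a difference of 2.53 (SE 0.09). In each of these 3 genes no cerebellum array overlapped a forebrain array. Here too the share of all probe sets without such overlap was not counted.

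The other receptors and Homer1 had smaller gaps in -/- mice. Grm7 ran from 140 to 219 in cerebellum and from 455 to 610 in forebrain (-1.71, SE 0.09). Homer1 ran from 322 to 533 and from 907 to 1710 (-1.58, SE 0.10). Grm3 was at -1.28 (SE 0.08), Grm8 at -1.19 (SE 0.12) and Grm2 at -0.65 (SE 0.10). Set beside the +/+ values given above, those of Grm3, Grm7, Grm8 and Homer1 were close, and Grm5 and Grm2 were nearer to 0 in -/- mice, at -3.95 beside -4.65 and at -0.65 beside -0.99. Whether these tissue gaps differed between genotypes was not tested.

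For Homer2 the tissue gap of the +/+ mice was smaller in the -/- average on all 3 probe sets. As a mean of the 3 lines, the main probe set stood at -1.30 in +/+ and at 0.0048 (SE 0.11) in -/- mice. The -/- value was -0.24 (SE 0.11) for 1424367_a_at and -0.52 (SE 0.26) for 1436110_at. The lines differed in this. In stg the cerebellum was lower than the forebrain in +/+ (-1.06) and higher in -/- (1.15), without overlap in either case. In tg it was lower in both, at -1.30 and -0.66, also without overlap. In lh it was lower at -1.52 in +/+ without overlap, while the -/- value was -0.48 with overlap. The second probe set, 1424367_a_at, had the same signs, -1 and 1.08 in stg, -1.72 and -0.91 in tg and -2.15 and -0.91 in lh.

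**Figure D4:**
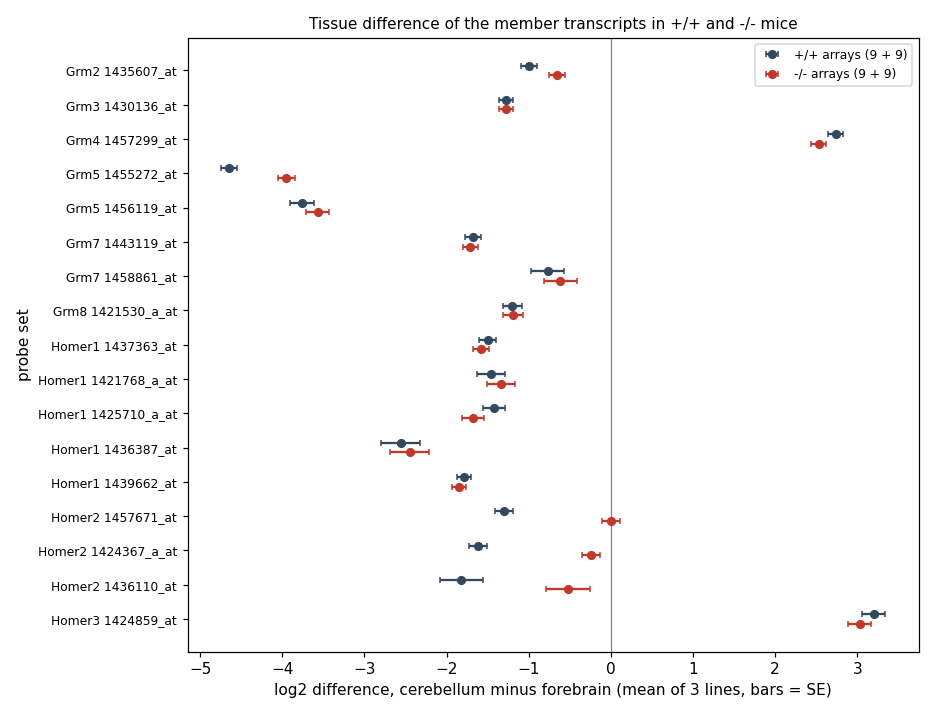
Log2 difference, cerebellum minus forebrain, of the 17 member probe sets tested, as a mean of the 3 lines with SE bars, for 9 arrays a tissue; dark is +/+ and red is -/-. The widest steps between the dark and red points are those of the 3 Homer2 probe sets, whose -/- points are at 0.0048, -0.24 and -0.52, followed by Grm5 1455272_at (-4.65 and -3.95) and Grm2 (-0.99 and -0.65).

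No member passed the test of a difference among the +/+ groups of the 3 lines. In an F test among stg+/+, tg+/+ and lh+/+, 0 of 15 member probe sets were called in cerebellum, where 0.881% of all probe sets were, and 0 of 17 in forebrain, where 0.414% were. Both counts are near those shares, so nothing particular to the members is read from them. At an unadjusted p under 0.05 there were 2 and 1, beside 2749 and 1909 of the 27022 probe sets. The smallest adjusted p (limma) was 0.285, for Homer2 1424367_a_at in cerebellum, whose line means spanned 0.70 with stg highest and lh lowest. The median span of the members was 0.31 in cerebellum and 0.26 in forebrain, beside 0.25 and 0.24 over all probe sets.

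Genes of the same pathways were read from 4 lists, by the brightest probe set of each gene. The Gq chain downstream of Grm5 (6 genes measured) had no call in any of the 6 mutant comparisons. Nor did the list of postsynaptic scaffold and receptor partners (13 genes tested). Among 11 genes of the Gi/o chain and its partners tested in cerebellum, 1 fell and none rose in stg: Adcy1, a calcium-stimulated adenylyl cyclase, at -0.74 (SE 0.15, limma adjusted p = 0.0163), with -0.09 in tg and -0.50 in lh not called. Of the 4 glutamate transporter genes none was called in a mutant comparison. Of all probe sets 1.3%, 0.574% and 0.155% were called in stg, tg and lh cerebellum, and 0.0111%, 0.189% and 0.0148% in forebrain. At such shares lists of this size would hold few calls or none, so nothing is read from their absence. Slc1a2, the main astrocyte transporter, differed among the +/+ groups in cerebellum (span 0.79, limma adjusted p = 0.0137). The median differences in stg cerebellum were 0.05, 0.07, 0.03 and -0.01 for the Gq, scaffold, Gi/o and transporter lists, beside 0.01 over all probe sets.

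Between the tissues of -/- mice most scaffold partners were lower in cerebellum. Of the scaffold partners, 10 of 13 were lower in cerebellum, 1 was higher and 2 did not pass. Of all probe sets tested 56.6% passed in this contrast, in either direction. The largest gaps were those of Arc, an activity-induced gene, at -3.77, Dlgap2, a Shank-binding protein, at -3.59, and Grasp, which binds the group of receptors that Grm5 belongs to, at -3.05, while Shank3 was higher at 0.30. In the Gq chain 3 of 6 passed, near the share of all probe sets. Plcb1 was lower in cerebellum at -1.26, and Plcb4, the phospholipase C of Purkinje cells, and Plcb3 were higher at 1.58 and 2.14. In the Gi/o list 2 of 11 were higher, Adcy1 at 1.02 and Gnai3 at 0.33, and 7 lower, among them Adcy5 at -1.55 and Elfn2, a postsynaptic partner of presynaptic receptors, at -1.81. Among the transporters Slc1a6 of Purkinje cells was at 4.20 and Slc1a3 of Bergmann glia at 1.32, while Slc1a2 and Slc1a1 were at -1.24 and -1.84. The medians were -0.02 for the Gq list, -0.84 for the scaffold list, -0.26 for the Gi/o list and 0.04 for the transporters, beside 0.06 over all probe sets.

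Marker lists of cerebellar cell types were read beside the values of Homer2 and Grm4. Of all probe sets 1.3%, 0.574% and 0.155% were called in stg, tg and lh cerebellum, so few or no calls would fall in lists this small. In stg, of 7 Purkinje cell markers 7 were above 0 and none was called (median 0.33), and the summed signal of the list ran from 38240 to 43380 in stg-/- and from 29850 to 37920 in stg+/+, without overlap. Of 7 granule cell markers measured 2 were above 0 (median -0.18), and 1, Gabra6, fell by 0.41 (limma adjusted p = 0.0129). Gabra6 also read lower without overlap in -/- cerebellum of the other lines, where it was not called. It ran from 6340 to 7200 against 7940 to 9170 in tg, and from 5770 to 6680 against 7730 to 8570 in lh. The granule cell sum ran from 21760 to 23040 in stg-/- and from 24530 to 27850 in stg+/+, also without overlap. In lh the granule cell sums did not overlap either, at 22590 to 23350 against 27240 to 29450, while Grm4 stood at -0.07 there. Of 5 markers of Golgi cells and other inhibitory interneurons 1 was above 0 (sums of 6143 to 6372 against 6077 to 6853). Of 6 astrocyte markers 6 were above 0 and Gfap rose by 0.93 (limma adjusted p = 0.0283; sums of 13290 to 15440 against 12110 to 13780). Of 5 microglia markers tested 5 were above 0 with none called, and of 4 oligodendrocyte markers 3. Beside the tg and lh values of Homer2, other lists had sums without overlap. In tg the microglia sum ran from 1184 to 1433 in -/- and from 880.9 to 1052 in +/+, with 5 of 5 tested markers above 0, and C1qc, a complement gene, rose by 1.12 (limma adjusted p = 0.00539). The interneuron sum in tg ran from 7403 to 7941 against 6451 to 6905, with 5 of 5 above 0. In lh the microglia sum ran from 1058 to 1077 against 826.3 to 865.6 (5 of 5 above 0) and the astrocyte sum from 13650 to 14180 against 11660 to 12820 (4 of 6). The part of these markers in the Homer2, Grm4 and Grm5 values was not tested.

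The genes whose pattern was most like that of Homer2 over the 18 cerebellum arrays, by Pearson's r on the log2 scale, were Inf2, a formin, at 0.937, Igsf3 at 0.933, Nos1, the neuronal nitric oxide synthase, at 0.929, and Notch2 at 0.926. Sox4 (0.913), Kcnk2 (0.912), Mex3a (0.911) and Marcks (0.905) followed. The stg-/- arrays shape these correlations: the stg differences were 1.72 for Inf2, 1.53 for Igsf3, 1.6 for Nos1, 0.47 for Notch2 and between 0.77 and 1.35 for the other 4. In tg the 8 genes lay between 0.15 and 0.75 and in lh between 0.14 and 0.73. The genes were picked for likeness to Homer2 on these arrays, so the sign of these values follows from the choice. For Grm4 over the same arrays the nearest genes were Kcnj3, a G protein-gated potassium channel subunit, at 0.897, Irx3 at 0.877 and Aqp6 at 0.872, and for Homer3 Bmerb1 at 0.919, Selenow at 0.897 and Cct7 at 0.894.

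Over the 18 forebrain arrays the nearest gene to Homer1 was Etv5, a transcription factor, at 0.891, before Gtpbp2 at 0.867 and Senp6 at 0.854. Homer2 there was nearest to Cald1 at 0.873. The other Homer2 probe sets did not follow the main one in forebrain (-0.0006 and -0.13). The nearest genes to Grm5 were Copb2 at 0.808, Pdzd2 at 0.798 and Nrxn3, a presynaptic adhesion protein, at 0.793. Those to Grm2, Grm3, Grm7 and Grm8 were Mkln1 at 0.816, Ssr1 at 0.817, Hook1 at 0.784 and Snap23 at 0.839. Arrays share group and tissue, so these values describe likeness on these arrays only.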

How the data were processed

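The deposited table gives linear intensities for 45101 probe sets on 36 Affymetrix arrays, scaled so that each array has a mean of 150 after trimming 2% at either end. The steps the authors took from scan to intensity are not stated in the sources used. Detection calls were not used, and 3 arrays a group limit the precision.

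Signals plus 2.98, their 10th percentile, were put on the log2 scale, 64 control probe sets were dropped, and those averaging over the 40th percentile entered each fit (27022). One probe set shared by Grm2 and a second gene was left out. Fits used limma 3.58.1 in R 4.3.3 with an intensity trend, Benjamini-Hochberg adjustment and a threshold of 0.05, over the 18 arrays of a tissue or all 36, and were tested on simulated data. A gene's main probe set has its highest mean. Named are all members, called list genes (at most 4 a list), and the nearest genes by correlation (8 for Homer2 in cerebellum, otherwise 3). Members, lists and comparisons were chosen with earlier results of these data known.

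Same-numbered cerebellum arrays were checked for pairing by the correlation of their deviations from group means. In stg it was 0.156, 0.188 and 0.38, above the limit of 0.1, so pairing by number was allowed for in an alternative fit. That pairing comes from the data, not the labels. Number also goes partly with the run of consecutive records, so a shared run cannot be told apart from pairing. The SEs and calls given in Results come from fits without pairing. One tg pair (0.0404) and one lh pair (0.0948) stayed below the limit. Alternatives were other filters, constants and normalization, no trend, array weights, single-line fits, blocks for replicate and for run of consecutive records, and leaving out arrays.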

Additional observations from a re-analysis of the deposited data

Results flagged for a closer look

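Homer2 on probe set 1424367_a_at was higher in lh-/- than in lh+/+ cerebellum on every array (0.78) and lower in lh-/- than in lh+/+ forebrain on every array (-0.46). The 2 effects lie 1.24 apart on the log2 scale, and that difference was not tested. The main Homer2 probe set was at 0.88 in lh cerebellum, also without overlap, and at -0.17 in lh forebrain with overlap.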

How the results depend on the processing

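The 3 member calls in stg cerebellum, 2 of Homer2 and 1 of Grm4, were made with the same probe sets under each filter, constant, normalization, trend, weight and block tried, the replicate block included, and without any 1 array (3 to 3). In tg cerebellum, where no member was called, array weights gave 2 calls and a replicate block 1, all of Homer2. In lh cerebellum a replicate block and a block for the 2 runs of records gave 1 call each, Homer2 1457671_at. The replicate block gave 1018, 429 and 211 calls among all probe sets in stg, tg and lh cerebellum, beside 352, 155 and 42 without it, and changed no other member call. In all 3 lines the labels give the samples a shared number and no pairing, and in tg 1 of 3 arrays correlated best with another number. In forebrain no replicate block was fitted, because the labels give those groups no shared replicate numbers.

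Between tissues of -/- mice the number of members that passed was 14 to 16 without any 1 array. The main Homer2 probe set stayed near 0 but changed sign, to -0.02 with quantile normalization and to between -0.0508 and -0.00997 without 1 of 8 arrays (0.0721 at the other end); the cause was not tested. Homer2 1424367_a_at and 1436110_at passed there without some arrays, such as lh-/- cerebellum replicate 1 (-0.30 and -0.66), and the former also with quantile normalization (-0.27).

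Without any 1 array the calls among all probe sets in cerebellum were 225 to 291 in stg, 63 to 116 in tg and 16 to 36 in lh, and in forebrain 2 to 3, 13 to 36 and 1 to 8.

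Of the counts of members compared with an alternative, 4 moved, each from 0, and 178 were unchanged or stayed within a set factor. The 178 thus include counts that changed, such as those of 14 to 16 between tissues of -/- mice. Of the other values, 67 moved past that factor or past the spread within groups, 9 reversed, 7 passed where they had not, and 3052 did none of these. With a constant of 16 the gaps of dim probe sets in +/+ mice were smaller: -4.22 and -3.05 for the Grm5 probe sets, -1.19 for Homer2 1436110_at, -0.98 for Grm8 and 2.88 for Homer3.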

Other observations

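Probe sets of 1 gene did not always go together over the 18 arrays of a tissue, by Pearson's r on the log2 scale. For Homer2, 1424367_a_at and 1436110_at followed the main probe set in cerebellum (0.959 and 0.771) but not in forebrain (-0.0006 and -0.13). The Homer1 probe sets 1425710_a_at, 1436387_at and 1439662_at followed the main one in both tissues (0.886, 0.851 and 0.843 in cerebellum, 0.717, 0.715 and 0.636 in forebrain). For Grm7 the second probe set, 1458861_at, went against the main one (-0.43 and -0.26).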
